A study of Mus musculus with 2 samples.

Results

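Mature Ccr7-positive dendritic cells (DC) were examined among cells of YUMMER1.7 tumors, sorted for CD45 and with some CD45-negative cells returned. The cells were selected on measured values. A cell was taken where the deposited count table listed at least 1 unique molecular identifier (UMI) of Ccr7 and at least 1 of Fscn1, no UMI of Cd3d, Cd3e, Cd3g or Ncr1, and at least 1 of Ptprc or H2-Ab1. This gate took 100 of 10100 cells. It took 57 of 4524 cells in the wild-type (WT) library and 43 of 5576 in the library labelled Siah2-/-. YUMMER1.7 is a BRAF-mutant mouse melanoma line with a high mutation load, and it was grown under the skin for 11 days. The hosts of both groups were male C57BL/6 mice, 8 weeks old, either WT or Siah2-/-. Siah2 encodes a RING-type ubiquitin ligase, and the study describes its deletion as global in the host, not in DC alone. The tumor cells of both groups were the same line. Digested tumors were sorted for live CD45-positive cells, to which some CD45-negative cells were returned before droplet capture, and 1 library (10x 3′ v2) was made per genotype.

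Conventional DC take up antigen in the tumor as immature cells. When they mature, they switch on Ccr7, the receptor that guides them along Ccl19 and Ccl21 to the lymph node, and Fscn1, an actin-bundling protein of the long processes of migrating DC. They raise costimulatory and checkpoint ligands, NF-kB family members and chemokines, and they stop making new MHC class II. Ccl22 and Ccl17 are ligands of Ccr4, a receptor found on regulatory T cells among others, and Il12b encodes the p40 chain shared by the cytokines IL-12 and IL-23.

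With 1 library per genotype there was no replicate, and tumor pool, cell suspension, library and genotype cannot be told apart. All intervals below are 95% intervals for counting error only, and no test between genotypes was possible. The table's cells held 64896674 UMIs in WT and 59184555 in Siah2-/-, with medians of 11426 and 8684 UMIs per cell. The lowest cell had 6670 and 4896 UMIs. The libraries shared 34 cell barcodes. Levels are given as CPM, which are a gene's UMIs scaled to 1000000 UMIs of the cells summed. Siah2 was rare in these 3′ counts and stood at 12.3 CPM in WT macrophages and 12.1 CPM in Siah2-/- macrophages. The sources used here do not say which part of the gene was deleted, and the label of the Siah2-/- library could not be checked from its counts. The gated cells held 11 Siah2 UMIs in WT and 3 in Siah2-/-.

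The gate genes fell into separate ranges. Of the WT cells, 26 had exactly 1 Ccr7 UMI, none had 2 to 3, and 31 had 4 or more, with a median of 35 and a highest value of 64. Of the Siah2-/- cells, 6 had exactly 1 Ccr7 UMI and 37 had between 9 and 150, with a median of 41. Fscn1 ranged from 1 to 15 UMIs in the WT cells with 1 Ccr7 UMI, with a median of 5. In the cells with 4 or more Ccr7 UMIs its median was 40 in WT and 47 in Siah2-/-. Both groups of cells passed the gate, but at 1 Ccr7 UMI the other markers were near 0.

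**Figure D1:**
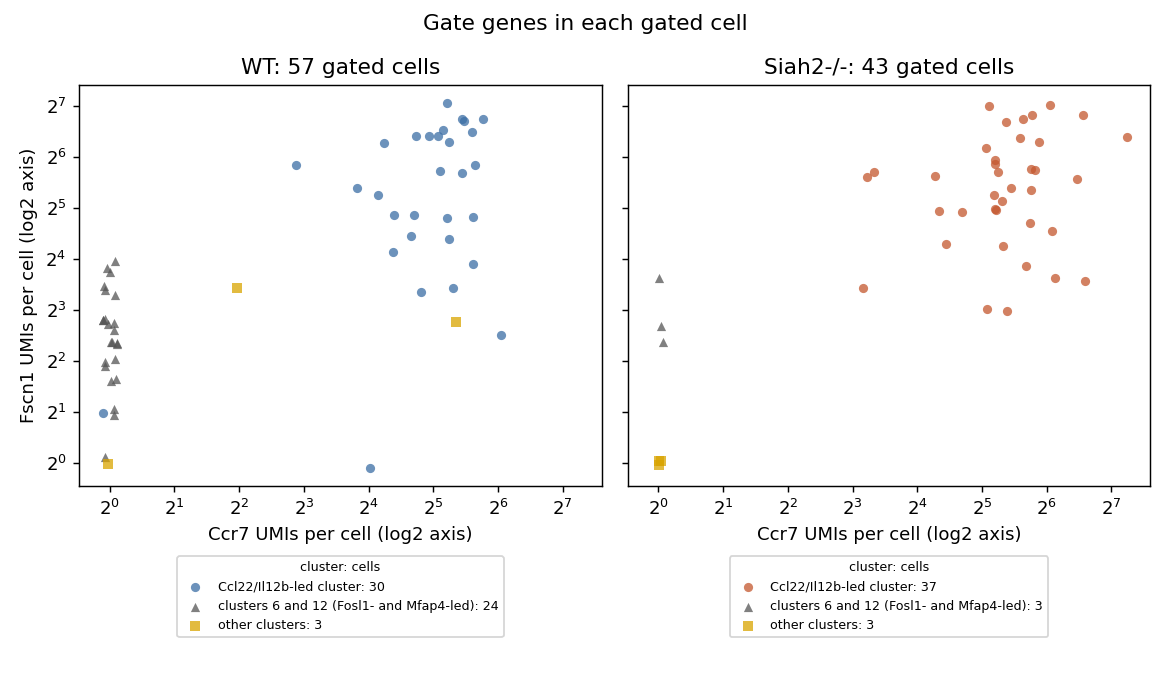
Ccr7 UMIs (x axis, log2 scale) against Fscn1 UMIs (y axis, log2 scale) in each gated cell, for WT (57 cells) and the library labelled Siah2-/- (43 cells), with marker shape and color giving the cluster and a small random shift to separate points. The cells with 1 Ccr7 UMI stand apart at the left and lie mostly in clusters 6 and 12, and no cell has 2 or 3 Ccr7 UMIs.

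The label mature DC therefore fitted only part of the gated cells. Of the 26 WT cells with 1 Ccr7 UMI, 2 had a Ccl22 UMI, 1 had an Il12b UMI, none had a UMI of the DC receptor gene Flt3, and 4 had a UMI of Ptprc, which encodes CD45. A Ptprc UMI was found in only 12 of the 31 WT cells with 4 or more Ccr7 UMIs, so many of those lacked it too. In Siah2-/- it was found in 5 of 6 cells with 1 Ccr7 UMI and in 25 of 37 with 4 or more. Col1a1, a collagen gene, was detected in 13 of the 26 WT cells with 1 Ccr7 UMI and in 0 of the 31 WT cells with 4 or more. The cells with 1 Ccr7 UMI were also large, with a median of 23562 UMIs against 9311. When all cells were clustered without the gate genes, 24 of these 26 WT cells and 3 of the 6 Siah2-/- cells fell into clusters 6 and 12. Of the other Siah2-/- cells with 1 Ccr7 UMI, 2 fell into cluster 3, led by Mmp12, Nos2 and Arg1, and 1 into cluster 5, led by Dpep2. Cluster 6 was led by Fosl1, Nefm and Wnt7b, and cluster 12 by Mfap4, Aspn, Rspo3 and Col12a1. Together they held 838 WT and 171 Siah2-/- cells. Fscn1 was detected in 96.7% and 94.2% of these cells and Ccr7 in 5.01% and 9.94%. Ptprc was detected in 61 of 274 WT cells of cluster 6 (22.3%) and in 90 of 564 of cluster 12.

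The gated cells with 2 or more UMIs of both Ccr7 and Fscn1 were 30 in WT and 37 in Siah2-/-. Of these, 28 and 37 fell into 1 cluster, cluster 17, whose leading genes Ccl22, Il12b, Il4i1, Mreg, Nudt17 and Scin include 2 of the 4 given markers. The given markers were Ccr7, Fscn1, Ccl22 and Il12b. These 67 cells are called mature DC below, and results for all 100 gated cells are named as such. The cells nearest to the gate from outside were 493 WT and 115 Siah2-/- cells with Fscn1 but no Ccr7, and 22 and 46 cells with Ccr7 but no Fscn1. The terms for CD3 genes and Ncr1 also removed 20 WT and 45 Siah2-/- cells with 2 or more UMIs of both gate genes. Of these, 11 and 32 carried only 1 or 2 such UMIs, and 14 and 42 lay in cluster 17. Among cells gated as macrophages without these terms, 32.5% in WT and 54.1% in Siah2-/- had a UMI of CD3 genes or Ncr1. The part of free RNA in these removals was not tested.

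The share of mature DC took its direction from the definition. By the gate as given, the share was 1.26% of WT cells (exact binomial interval 0.956 to 1.63) and 0.771% of Siah2-/- cells (0.559 to 1.04), a log2 ratio of -0.71 (interval -1.31 to -0.11). With 2 or more UMIs of both genes it was 0.663% (0.448 to 0.945) and 0.664% (0.468 to 0.913). With the CD3 and Ncr1 terms also left out, 50 WT cells (1.11%) and 82 Siah2-/- cells (1.47%) remained, a log2 ratio of 0.41 (-0.11 to 0.95). All cells of cluster 17 were 52 in WT (1.15%) and 86 in Siah2-/- (1.54%). When each cell was first thinned to 4000 UMIs the gate took 29 WT and 51 Siah2-/- cells. Only the gate as given and the wider set of barcodes gave intervals of the ratio that left out 0, and both put the WT share higher.

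The wider set held all barcodes with 1000 UMIs or more in the unfiltered matrices, including those below the minimum of the table. In it the gate took 104 of 10074 WT barcodes (1.03%) and 47 of 9530 Siah2-/- barcodes (0.493%). With 2 or more UMIs of both genes it took 71 (0.705%) and 39 (0.409%). Of these, 41 WT and 2 Siah2-/- barcodes were not among the table's cells. In the WT barcodes outside the table, 36 of the 41 had a Ccl22 UMI. Within the DC gated here, immature ones included, all gated cells made up 57 of 85 in WT (67.1%, 56.0 to 76.9) and 43 of 65 in Siah2-/- (66.2%, 53.4 to 77.4). With 2 or more UMIs of both genes they were 30 of 58 (51.7%, 38.2 to 65.0) and 37 of 59 (62.7%, 49.1 to 74.96), a log2 ratio of 0.28 (-0.46 to 1.02).

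**Figure D2:**
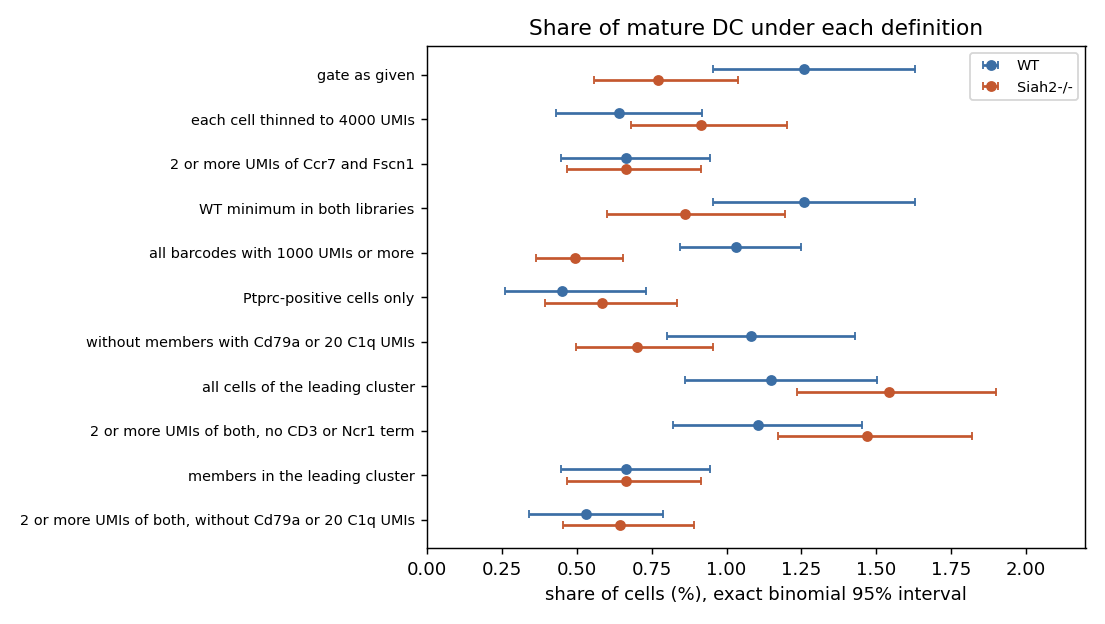
Share of mature DC in percent of cells (x axis) with exact binomial 95% intervals, for WT (blue) and the library labelled Siah2-/- (orange), under the gate as given and each other definition (y axis). Among the table's cells, the WT share is higher by the gate as given (1.26% against 0.771%) and equal with 2 or more UMIs of both gate genes. It is lower in all cells of the leading cluster (1.15% against 1.54%).

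Mature DC were next compared with immature conventional DC within each library. The immature cells were gated on Flt3 and H2-Ab1 without Ccr7, Csf1r, CD3 genes, Ncr1, Cd79a and Siglech, and were 28 in WT and 22 in Siah2-/-. Ccr7, Fscn1, H2-Ab1 and Flt3 were used in these gates, so their differences are no finding. Of 2249 genes with 30 or more UMIs in each library, 14.6% were at least 2-fold higher in mature DC in both libraries and 11% at least 2-fold lower. When all 100 gated cells were compared with the immature DC, the figures over 2851 genes were 8.63% and 6.38%.

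Most genes of the maturation program were higher in mature DC than in immature DC. Of its 30 genes, 27 were measured well enough, 24 were at least 2-fold higher in mature DC in both libraries and 0 were lower. The median log2 ratio of the list was 3.57 in WT and 5.37 in Siah2-/-, against -0.12 and -0.08 over all genes. Without the gate genes Ccr7 and Fscn1, 22 of 25 were higher, with medians of 3.49 and 5.06. Its genes include the 4 given markers, and the list was chosen with earlier results of these data known. The 3 measured genes that did not pass in both libraries were Cd86, Socs1 and Ebi3.

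Ccl22 stood at 2442 CPM in mature DC of the WT library against 38.6 CPM in immature DC, and at 1328 against 4.29 CPM in Siah2-/-. Il12b stood at 1189 against 28.3 CPM in WT and at 1180 CPM against 0 UMIs in Siah2-/-, which was higher by at least 6.52 on the log2 scale with 3 counts as the floor of the immature DC. Ccl5, a T cell-attracting chemokine gene, was the most abundant of the named chemokines, with 6827 against 105 CPM in WT and 10919 against 107 CPM in Siah2-/-. NK cells of the same libraries carried 302 and 1105 CPM of Ccl5 and macrophages 877 and 2110 CPM. The WT immature DC held 1 cell with 83 of their 90 Fscn1 UMIs, and all 11 Il12b UMIs and all 33 Ccl17 UMIs of that set also lay in 1 cell each.

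Surface molecules that stimulate or restrain T cells were higher in mature DC. Of the 10 measured genes of this list, 6 were at least 2-fold higher in both libraries and 0 were lower, with a median log2 ratio of 2.36 in WT and 2.44 in Siah2-/-. Cd274 and Pdcd1lg2, the genes of the ligands of PD-1, had log2 ratios of 2.79 and 3.06 in WT and 3.97 and 3.77 in Siah2-/-. Cd200, the gene of an inhibitory surface ligand, had 3.46 and 6.34. Il15ra, which presents IL-15 to NK and CD8 T cells, had 4.47 and 5.72, and Cd40, the receptor for CD40 ligand of T cells, had 2.43 and 2.53. Cd86 was detected in both kinds of DC and differed by 0.54 and 0.65, below 2-fold.

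**Figure D3:**
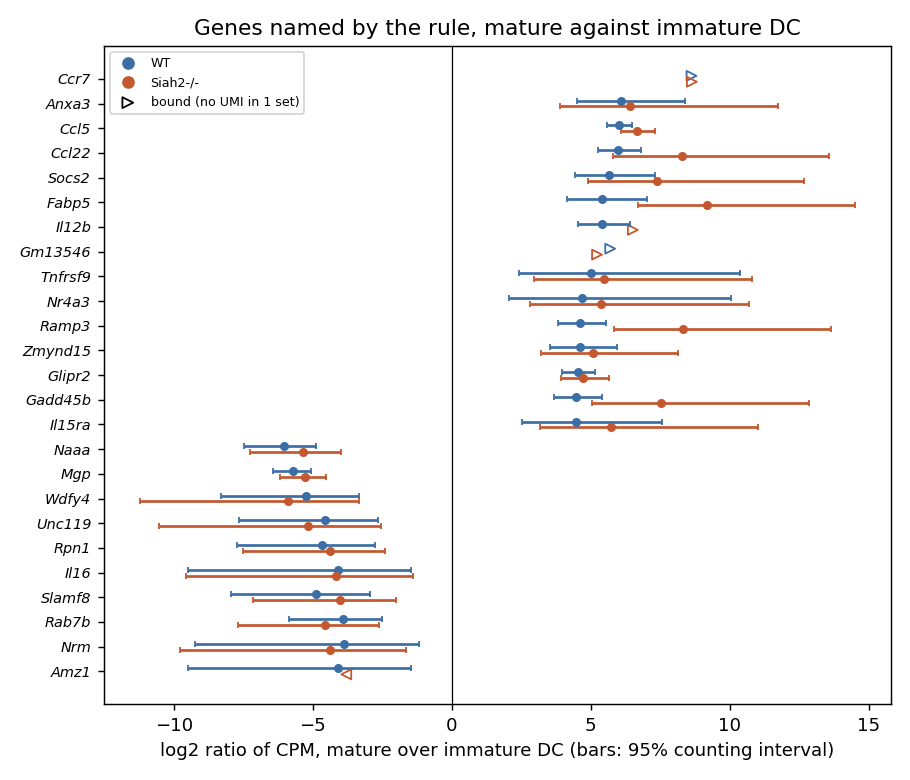
Log2 ratio of CPM of mature over immature DC (x axis) for the genes named by a rule of size (y axis), in WT (blue) and the library labelled Siah2-/- (orange), with bars for 95% counting intervals and open triangles for bounds where 1 set had no UMI. All 15 genes at the top are higher and all 10 at the bottom are lower in both libraries.

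The rule that named the genes of this plot took the largest ratios that held in both libraries. The higher genes included Socs2, a suppressor of cytokine signalling, with 655 against 12.9 CPM in WT and 715 against 4.29 CPM in Siah2-/-. They also included Anxa3, an annexin, with 529 against 7.71 CPM and 367 against 4.29 CPM, and Fabp5, a fatty acid binding protein, with 544 against 12.9 CPM and 2520 against 4.29 CPM. Tnfrsf9, which encodes the costimulatory receptor 4-1BB, was at 84.1 and 191 CPM in mature DC with 1 UMI in the immature DC of each library, and NK cells carried 572 and 505 CPM of it. The lower genes included Naaa, with 6 UMIs against 457 in WT and 4 against 111 in Siah2-/-, and Wdfy4, which cross-presenting cDC1 need, at 6.01 against 226 CPM and 2.89 against 172 CPM.

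Genes of the NF-kB family and its targets were higher in mature DC. Of 16 genes 13 were measured well enough, 11 were at least 2-fold higher in both libraries and 0 were lower, with a median log2 ratio of 2.13 in WT and 2.71 in Siah2-/-. Relb, the DNA-binding subunit of the noncanonical branch, had 2.82 and 4.67, and its partner Nfkb2 had 1.86 and 3.09. Rel had 2.38 and 2.71, and Map3k14, the kinase that starts this branch, had 2.33 and 4.09. Traf1, an adaptor of TNF receptors, was in every mature DC, at 6 to 28 UMIs in WT and 4 to 33 in Siah2-/-. Nfkbia, the gene of the inhibitor of the canonical branch, had 1.05 and 2.05. Nfkb1 had 0.92 and 0.73 and Nfkbie 1.58 and 0.97, so they were not 2-fold higher in both libraries.

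The 250 bases before the start sites of the listed genes, whether or not they had passed 2-fold, were searched for the letters GGGNNNTTCC, a common form of the NF-kB site, and for its reverse complement GGAANNNCCC. Promoters came from RefSeq on GRCm38.p6, and 13 of the 16 genes had one in the table. The motif was present in 7 of these 13 genes (53.8%), in 1 of 22 genes of the maturation program (4.55%), and in 1434 of 27025 genes with a promoter in the table (5.31%). The list had been put together from known NF-kB genes, and some of its genes have several start sites. A match is a match of letters only. The following stretches show 1 match in each of 5 NF-kB genes and in Tnfrsf9, written 5′ to 3′ on the strand of the gene with the motif in capitals.
Nfkb2, chr19:46305695-46305724, plus strand: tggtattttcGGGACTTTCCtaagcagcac
Rel, chr11:23771041-23771070, minus strand: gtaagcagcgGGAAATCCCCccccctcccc
Nfkbia, chr12:55492657-55492686, minus strand: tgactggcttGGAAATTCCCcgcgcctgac
Nfkbie, chr17:45555584-45555613, plus strand: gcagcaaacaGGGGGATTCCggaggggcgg
Tnip1, chr11:54962979-54963008, minus strand: ctccatcatgGGGGAATTCCcctcctgcct
Tnfrsf9, chr4:150927946-150927975, plus strand: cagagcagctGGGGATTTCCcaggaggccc
The match began 225 bases before the start in Nfkb2, 91 in Rel, 29 in Nfkbia, 106 in Nfkbie, 58 in Tnip1 and 43 in Tnfrsf9. In Tnip1 a match on the other strand overlapped the one shown. No match was found in the windows of Relb, Traf1, Ccl22, Ccl17, Il12b, Ccr7 or Fscn1 where a promoter was listed.

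Migration and cytoskeleton genes followed the same direction, with 10 of 13 measured genes at least 2-fold higher in both libraries and 0 lower. Without the gate genes Ccr7 and Fscn1 these were 8 of 11, namely Marcks and Marcksl1, which encode actin-linked substrates of protein kinase C, Myo1g, a class I myosin, Cxcl16, Samsn1, Tmem123, Cacnb3 and Arhgap31. Marcksl1 stood at 1838 against 154 CPM in WT and at 2129 against 51.5 CPM in Siah2-/-. Among survival genes Bcl2a1b had log2 ratios of 2.46 and 3.54 and Bcl2a1d 1.85 and 2.99. These genes have near-identical copies, so their counts are uncertain.

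MHC class II genes were lower in mature DC. Of 12 measured genes of MHC class II presentation, 9 were at least 2-fold lower in mature DC in both libraries and 1, the protease gene Lgmn, was higher, with a median log2 ratio of -1.73 in WT and -1.69 in Siah2-/-. The immature DC had been gated on H2-Ab1, and genes that vary with it were in part chosen by that gate, so these counts are a description. Without H2-Ab1 itself 8 of 11 were lower, with medians of -1.38 and -1.69. H2-Aa stood at 4226 against 10965 CPM in WT and at 4794 against 11091 CPM in Siah2-/-. H2-DMb1, part of the peptide loading complex, had log2 ratios of -2.77 and -3.89. Ciita, the master activator of class II genes, had 3 UMIs in 30 WT mature DC against 36 in 28 immature DC, and 5 in 37 against 19 in 22 in Siah2-/-. Class I presentation stood near the background. Of 13 measured genes 3 were higher and 2 lower in both libraries, where 14.6% and 11% of all genes were, and the median log2 ratios were 0.23 and 0.82. H2-K1 was higher at 1.26 and 1.12 and the proteasome activator gene Psme2 at 1.52 and 2.13, and the chaperone genes Calr and Pdia3 were lower.

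Of the genes of the immature subsets, most of those of cDC1 were lower in mature DC. Of 6 measured cDC1 genes, 4 were at least 2-fold lower in both libraries, while the transcription factor genes Batf3 (0.31 and 0.79) and Irf8 (-0.04 and 0.72) were kept near the immature level. Xcr1, the chemokine receptor that defines cDC1, had 1 UMI in WT mature DC and 0 in Siah2-/-. The immature gate took 12 of the 143 WT and 11 of the 128 Siah2-/- cells of cluster 18, whose leading genes include Cd209a and Kmo. In each library 1 immature DC lay in clusters 6 or 12. The counts for both subsets hold for that gate. Of 12 cDC2 genes 2 were measured well enough, and they went apart. Tnip3, an NF-kB inhibitor gene, was higher, with log2 ratios of 5.02 and 1.75, and Ltb, the gene of lymphotoxin beta, had -0.78 and -2.76. Cd209a, a cDC2 marker, had 0 UMIs in both, where 3 counts would correspond to 9.01 CPM in WT and 8.68 CPM in Siah2-/-. Flt3 was shared with immature DC, at 135 against 149 CPM in WT and 214 against 197 CPM in Siah2-/-, and the immature DC had been gated on it. Ly75, the gene of the uptake receptor DEC-205, was higher, with log2 ratios of 3.92 and 3.27.

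The type I interferon list had no gene in the shared higher set. Of its 11 measured genes, 0 were higher and 3, Ifit2, Ifit3 and Rsad2, were at least 2-fold lower in both libraries. Over all genes 14.6% were higher and 11% lower. The chemokine gene Cxcl10 was lower, with log2 ratios of -2.52 and -2.66, and Cxcl9 differed by -0.51 and 0.08. Of 13 measured immediate early and heat shock genes, which tissue digestion can induce, 0 were higher and 3 lower in both libraries, with medians of -0.39 and -0.65, where 11% of all genes were lower. The 3 were Fos (-2.11 and -2.51), Egr1 (-3.44 and -2.68) and Ier2 (-2.23 and -1.69). Stat4, which relays IL-12 signals, was higher, with 3.76 and 5.54.

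The mature DC were not uniform in MHC class II. The summed level of H2-Aa, H2-Ab1, H2-Eb1 and Cd74 ranged from 2179 to 77872 CPM per cell in WT, with a median of 9701 CPM, and from 2782 to 69951 CPM in Siah2-/-, with a median of 11040 CPM. It reached 10000 CPM in 15 of 30 WT cells (50.0%, 31.3 to 68.7) and in 20 of 37 Siah2-/- cells (54.1%, 36.9 to 70.5). Among immature DC it did so in 27 of 28 and 21 of 22 cells. All 3 Ciita UMIs of WT and all 5 of Siah2-/- lay in the cells above 10000 CPM, and 2 of the 3 in WT came from 1 cell with 28 C1qa UMIs outside cluster 17. The cells below it held more Fscn1, at 7051 against 2770 CPM in WT and 7169 against 4180 CPM in Siah2-/-. The cells had been chosen on Fscn1 and, in part, on H2-Ab1. Macrophage genes were uneven between these cells in WT, with C1qa at 1843 CPM above the line and 587 CPM below it, Csf1r at 160 and 33.0 CPM and Lyz2 at 2599 and 250 CPM. In Siah2-/- C1qa stood at 81.2 and 74.5 CPM and Lyz2 at 217 and 193 CPM. The highest WT cell, at 77872 CPM, lay outside cluster 17 and carried 28 C1qa UMIs. The part of macrophage RNA in the WT spread was not tested.

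Cytokine and chemokine genes were uneven between cells. With each cell thinned to 4000 UMIs, Ccl22 and Il12b were both detected in 17 of 30 WT mature DC, Ccl22 alone in 7, Il12b alone in 4 and neither in 2. In Siah2-/- the numbers were 17, 12, 4 and 4 of 37. Ccl17 was detected in 8 WT and 6 Siah2-/- cells, all of which also had Ccl22. NK cells, which should lack these genes, had a Ccl22 UMI in 2 of 295 and 0 of 299 cells and an Il12b UMI in 1 and 0 at the same thinned depth, from medians of 9356 and 7735 UMIs. Mature DC had medians of 9474.5 and 8625 UMIs. The Ccl22 UMIs per WT mature DC ran from 0 to 224 with a median of 8.5, and in Siah2-/- from 0 to 94 with a median of 5. Il12b ran from 0 to 148 with a median of 4.5 in WT and from 0 to 84 with a median of 1 in Siah2-/-. In WT, 1 cell gave 37.4% of the WT Il12b UMIs. The partner chains were not detectable at this depth. Il12a, which pairs with p40 to form IL-12, and Il23a, which forms IL-23, had 0 UMIs in both libraries, where 3 counts would be 9.01 CPM in WT and 8.68 CPM in Siah2-/-. Ebi3 had 36 and 29 UMIs, Il15 23 and 20, Il6 8 and 15, and Il10 0 and 1.

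**Figure D4:**
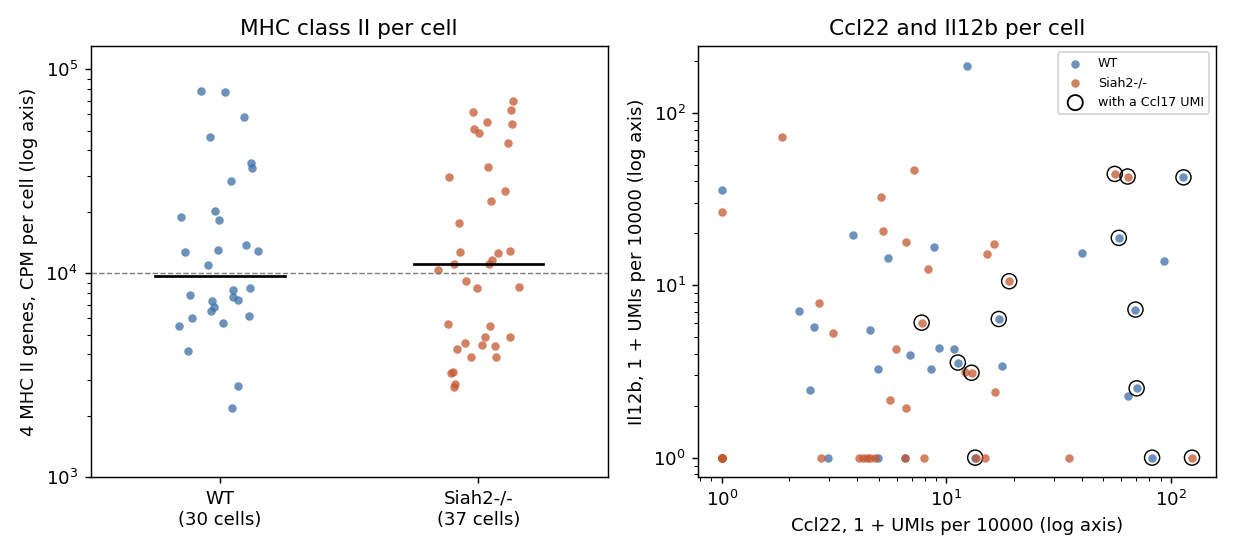
Left, summed CPM of H2-Aa, H2-Ab1, H2-Eb1 and Cd74 per mature DC (y axis, log scale) for WT (30 cells) and the library labelled Siah2-/- (37 cells), with black lines at the medians and a dashed line at 10000 CPM. Right, Ccl22 (x axis) against Il12b (y axis), each as 1 plus UMIs per 10000 UMIs of the cell on log axes, with rings around cells with a Ccl17 UMI. MHC class II spans from about 2179 to 77872 CPM, and the ringed cells all carry Ccl22.

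Siah2-/- was then set against WT. In all 100 gated cells, 487 of 5255 genes (9.27%) were at least 2-fold higher in the library labelled Siah2-/- and 997 (19%) at least 2-fold lower, with a median log2 ratio of -0.22 over all genes. The WT side of this comparison held 24 cells of clusters 6 and 12 and the Siah2-/- side 3. All 6 genes of the fibroblast list, all 6 measured G2 and M phase genes and 10 of 14 measured type I interferon genes were at least 2-fold lower in Siah2-/-, and 22 of 29 maturation genes were higher. Capn6, a calpain family gene, led the lower genes by the rule of size, and Fabp5 led the higher ones with a log2 ratio of 3.37. The summed fibroblast list stood at 2037 CPM in WT and 702 CPM in Siah2-/-, with 0 of its genes at 0.

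In the 67 mature DC much less differed. Of 2548 genes with 30 or more UMIs over both libraries, 106 (4.16%) were at least 2-fold higher in Siah2-/- and 135 (5.3%) at least 2-fold lower. The 41 WT and 2 Siah2-/- barcodes outside the table with 2 or more UMIs of both gate genes are not part of these cells. Fibroblast genes stood at 9.01 and 28.9 CPM in sum, with 4 of 6 at 0. Of the maturation program 1 of 29 measured genes, Cd200, was 2-fold higher and 0 were lower, with a median log2 ratio of 0.39 against 0.01 over all genes. Of the type I interferon list 0 of 9 passed in either direction. Without the cells that carried B cell or macrophage genes, defined next, 3 of 7 measured genes of that list were higher in Siah2-/-, with a median log2 ratio of 0.60, namely Isg15 at 535 and 1294 CPM (1.27, 0.99 to 1.57), Oasl2 (1.73) and Ifit1 (1.59). In the same cells 0 of 29 maturation genes were 2-fold higher and 1, Ccl22, was lower, with a median of 0.21.

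Macrophage genes stood apart in a few WT cells. All 9 measured genes of the macrophage list were at least 2-fold lower in Siah2-/-, and the list summed to 9935 CPM in WT mature DC against 746 CPM in Siah2-/-, with 1 of its 12 genes at 0. Apoe gave 1539 UMIs in WT and 84 in Siah2-/-, and 1 WT cell held 786 of them. C1qa gave 423 and 27, and 1 WT cell held 165. Without the cells that carried a Cd79a UMI or 20 or more summed UMIs of C1qa, C1qb and C1qc, 24 WT and 36 Siah2-/- cells were left, and the list summed to 643 and 740 CPM. Of 2160 genes, 48 were then at least 2-fold lower (2.22%) and 115 higher (5.32%). The genes that the rule of size named as lower in mature DC included Fcer1g and Fcgr4, which encode Fc receptor subunits of myeloid cells, at log2 ratios of -1.90 and -2.94. Without the carriers Fcer1g differed by 0.35 and Fcgr4 by -1.32, on 9 and 5 UMIs. Of the genes named by the same rule, Mydgf (-1.82, -3.12 to -0.66), Emp3 (-1.38, -2.13 to -0.67) and Pld4 (-1.34, -2.49 to -0.27) were over 2-fold lower in Siah2-/- without the carriers as well. The part of macrophage RNA in the lower genes was otherwise not tested.

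Of 14 measured costimulatory and checkpoint genes, 2 (Cd200 and Tnfsf4) were at least 2-fold higher in mature DC of the library labelled Siah2-/- and 0 were lower, with a median log2 ratio of 0.51. Over all genes of mature DC 4.16% were higher and 5.3% lower. Cd200 stood at 508 CPM in WT, with 0 to 19 UMIs per cell and a median of 4.5, and at 1042 CPM in Siah2-/-, with 1 to 32 and a median of 9, a log2 ratio of 1.04 (0.77 to 1.31). Cd274 stood at 177 and 336 CPM (0.92, 0.46 to 1.40), and thinned to equal depth it was detected in 60.0% and 81.1% of mature DC, against 5.76% and 8.36% of NK cells. Pdcd1lg2 stood at 171 and 292 CPM (0.77, 0.29 to 1.27) and Il15ra at 114 and 226 CPM (0.98, 0.41 to 1.58). Without the Cd79a and C1q carriers 0 of 13 measured genes passed in either direction, and these ratios were 0.85, 0.61, 0.47 and 0.63, and the interval for Pdcd1lg2 included 0. Cd40 went the other way, at 318 and 223 CPM (-0.52, -0.96 to -0.08), and Cd86 at 318 and 344 CPM did not separate beyond counting error.

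Among NF-kB genes, Tnfaip3, which encodes the NF-kB inhibitor A20, had 4 UMIs in 3 WT cells and 35 in 22 Siah2-/- cells, a log2 ratio of 3.08 (1.59 to 5.03). Rel stood at 147 and 336 CPM (1.19, 0.70 to 1.70). Both were at least 2-fold higher also without the Cd79a and C1q carriers, at 2.66 and 1.10, and they were 2 of 15 measured genes of the NF-kB list past 2-fold, with 0 lower. Over all genes of mature DC 4.16% were at least 2-fold higher, and the share without the carriers is given above. Relb differed by 0.54 (0.28 to 0.81), or by 0.30 (0.03 to 0.58) without the carriers, and Nfkb1 by 0.15 (-0.37 to 0.67). Of 12 measured immediate early and heat shock genes, 4 were at least 2-fold higher, where 4.16% of all genes were. These were Ier2, Dusp1 (345 and 978 CPM), Junb (1.01, 0.78 to 1.25) and Fosb (2.50, 1.33 to 3.90). Without the carriers 4 of 11 were higher, namely Ier2 (1.06), Dusp1 (1.59), Junb (1.03) and Fos (2.34, 1.57 to 3.19, on 16 and 112 UMIs), where Fos differed by 0.84 with them, and Fosb had 4 and 18 UMIs, too few to be counted. Dusp1 was also higher in other cells of the Siah2-/- library, with 528 and 1253 CPM in macrophages and 114 and 375 CPM in NK cells. Tnfaip3 stood at 34.5 and 113 CPM in NK cells, and at 31.1 and 95.8 CPM in the free RNA of droplets without a cell, against 12.01 and 101 CPM in mature DC. The part of cell handling or of free RNA in these differences was not tested.

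Fabp5 ran from 0 to 29 UMIs per WT mature DC with a median of 3, and from 0 to 75 with a median of 12 in Siah2-/-, giving 544 and 2520 CPM and a log2 ratio of 2.21 (1.98 to 2.45). In macrophages it stood at 103 and 313 CPM, and in immature DC at 5 UMIs and 1 UMI. Il1b, the gene of the inflammatory cytokine IL-1 beta, gave 75 UMIs in 14 WT cells, of which 32 lay in 1 cell, and 326 UMIs in 28 Siah2-/- cells, a log2 ratio of 2.07 (1.70 to 2.45). Macrophages of the same libraries carried 745 and 1757 CPM of Il1b and immature DC 278 and 845 CPM. Mature DC carried 225 and 943 CPM, and the free RNA of droplets without a cell held Il1b at 340 and 869 CPM of its own UMIs. The Il1b difference in mature DC went with one of the same direction in free RNA, whose share of each cell's UMIs was not measured and whose part was not tested. Gpr183, an oxysterol receptor that positions DC, had a log2 ratio of 1.68 (1.01 to 2.41) and Cd1d1, which presents lipids to NKT cells, 1.90 (1.06 to 2.82).

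The ligands of Ccr4 were lower in Siah2-/- mature DC. Ccl22 stood at 2442 CPM in WT (2277 to 2615) and 1328 CPM in Siah2-/- (1209 to 1455), a log2 ratio of -0.88 (-1.05 to -0.71), below 2-fold. It was detected in 28 of 30 and 32 of 37 cells. In WT, 1 cell held 224 of the 813 UMIs (27.6%), and without the cell with most Ccl22 UMIs in each library the ratio was -0.80 (-0.99 to -0.61). In all 100 gated cells the ratio was 0.25, and without the Cd79a and C1q carriers it was -1.21. Ccl17 stood at 937 and 243 CPM (-1.95, -2.31 to -1.60), but the WT level came from 8 cells, 1 of which held 204 of 312 UMIs and was the same cell that led Ccl22, and the Siah2-/- level from 6 cells, 1 of which held 61 of 84. Without these cells the Ccl17 ratio was -2.33 (-3.05 to -1.67), on 108 and 23 UMIs. The size of the Ccl17 ratio varied with the definition. It was -0.81 in all 100 gated cells, -2.40 in mature DC without the carriers and -3.55 in all cells of cluster 17 (893 and 112 UMIs). Siah2-/- was lower in each of these. The cells of the libraries overlapped for both genes, and with so few cells the counting interval understates the error. Ccl5 went the other way, at 0.68 (0.60 to 0.75) and at 0.33 (0.25 to 0.41) without the carriers. NK cells carried 1105 CPM of it in Siah2-/- against 302 CPM in WT.

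The ratio of Il12b took its direction from the definition. In the 67 mature DC it stood at 1189 and 1180 CPM (-0.01, -0.21 to 0.19), with 37.4% of the WT UMIs in 1 cell. Over all 100 gated cells it was 1.16 higher on the log2 scale. It was lower in Siah2-/- without the Cd79a and C1q carriers (-0.36, -0.57 to -0.15), without the CD3 and Ncr1 terms (-0.50, -0.68 to -0.32) and in all cells of cluster 17 (-0.75, -0.92 to -0.58). The same WT cell was part of each of these sets, and without the carriers it held 148 of the 372 WT UMIs. Ccr7 and Fscn1, on which the cells were chosen, stood at 3057 and 5144 CPM and at 4721 and 5572 CPM. Socs2 (0.13, -0.14 to 0.40), Samsn1 (0.50) and Il4i1 (0.34) differed by less than 2-fold. Of 12 measured MHC class II genes 4 (H2-DMa, H2-DMb1, H2-Oa and Ctsl) were at least 2-fold lower in Siah2-/- and 0 higher, with a median log2 ratio of -0.52. Over all genes of mature DC 5.3% were lower. Without the Cd79a and C1q carriers 0 of 10 were lower and 2, H2-DMb1 (1.42, on 7 and 26 UMIs) and H2-DMb2 (2.28, on 7 and 47 UMIs), were higher, with a median of 0.27. H2-Ab1 was 0.44 lower and Cd74 0.39 lower on the log2 scale in Siah2-/-, but without the Cd79a and C1q carriers H2-Ab1 was 0.99 higher and Cd74 differed by 0.08, so the direction of H2-Ab1 turned without those cells. Cxcl9, a chemokine gene induced by interferon gamma, stood at 123 and 145 CPM (0.23, -0.39 to 0.86), but its ratio was 2.06 (1.55 to 2.59) in all 100 gated cells, 1.81 (1.40 to 2.25) in all cells of cluster 17 and 1.38 (0.93 to 1.84) in the mature DC gated without the CD3 and Ncr1 terms. Cdkn1b, which encodes p27, had 9 and 8 UMIs. Mki67, a marker of cycling cells, had 4 UMIs in 2 WT cells and 0 in Siah2-/-, where 3 counts would be 8.68 CPM.

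**Figure D5:**
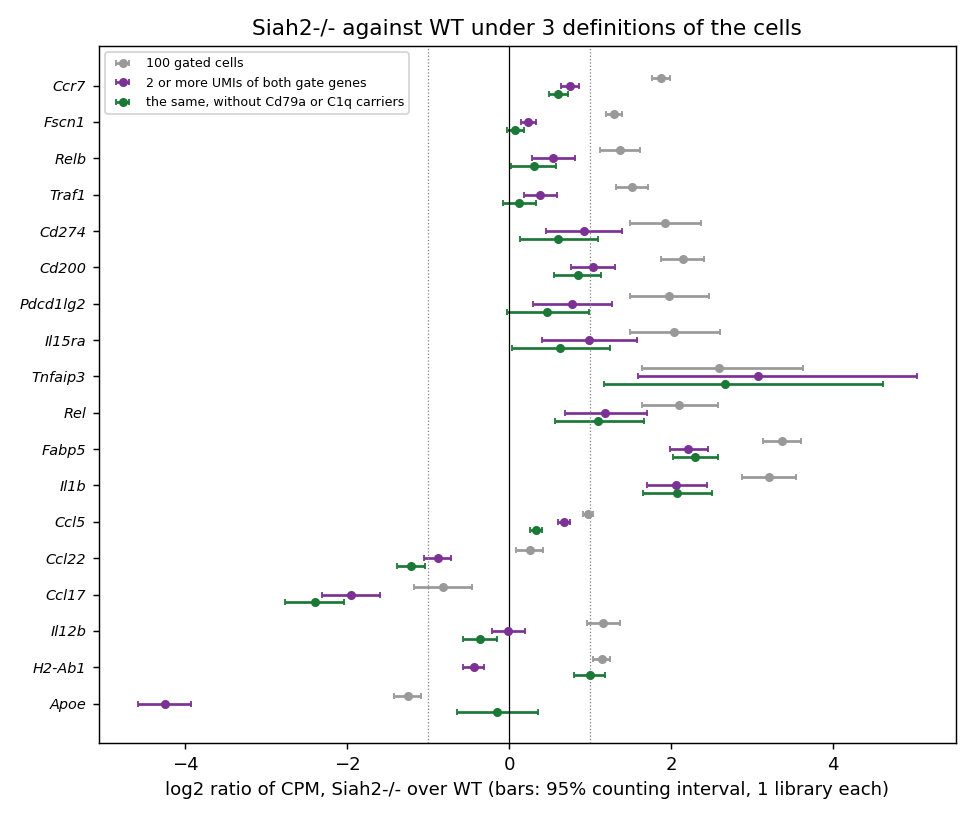
Log2 ratio of CPM in the library labelled Siah2-/- over WT (x axis) with 95% counting intervals, for 18 genes (y axis), in all 100 gated cells (grey), in the cells with 2 or more UMIs of both gate genes (purple), and in the same cells without Cd79a or C1q carriers (green). The ratios of Relb and Traf1 are smaller in mature DC than in all gated cells, Ccl22 changes side, and H2-Ab1 and Apoe move with the carriers. Ccr7 and Fscn1 are gate genes, so their ratios depend on the selection.

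The genotype ratios of the named genes could be set against those of immature DC only in part. In immature DC Cd200 had 18 UMIs in WT and 3 in Siah2-/-, Cd274 had 10 and 5, and Rel had 11 and 12, too few to compare. Dusp1, with a log2 ratio of 1.76, and Junb, with 1.01, were higher in immature DC of the library labelled Siah2-/- as well. No test of the difference between the kinds of DC was possible with 1 library per genotype.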

How the data were processed

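Unfiltered gene-by-barcode matrices and a table of raw counts were used. Both hold counts of UMIs that the authors made with Cell Ranger on mm10/GRCm38, after bcl2fastq. Their versions are not stated. The authors state filters on detected genes and on a mitochondrial share of 10%. The deposited count table holds slightly more cells than the study gives for its aligned data set, so it may not be exactly the set the authors kept. Their normalized values were not used. The gate was applied to the table, and the counts of the same cells were read from the matrices.

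Cells, gene lists and named genes were chosen with earlier results of these data known. UMIs were summed over cells and given as CPM with exact Poisson intervals. Ratios have exact conditional binomial intervals, and genes needed 30 UMIs. A gene was called at a 2-fold difference. Where 1 side had no UMI, 3 counts were set as a floor. The genes named by size were, for each side, the 12 largest genotype ratios, 15 higher and 10 lower against immature DC, detected in 10% of cells of the higher library with at most 25% of its UMIs in 1 cell (genotype), or in 25% of cells in both libraries (immature DC). Genes of the lists were named by abundance or size of ratio, and some further ones after their values were seen. Cells were clustered in scanpy 1.11.5 on 2000 variable genes, 30 components, 15 neighbours and resolution 1, without the gate genes. No doublet caller was run, and cells with a Cd79a UMI or 20 C1q UMIs were left out as an alternative. The code was tested on simulated counts. Alternatives covered thresholds, denominators, depth, free RNA, averaging and centring. Gene positions are from GRCm38.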

Additional observations from a re-analysis of the deposited data

Results flagged for a closer look

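Some genes differed 2-fold or more in opposite directions between the genotypes in the 100 gated cells and in immature DC, with counting intervals that left out 0 in both. The difference between the kinds of cell was not tested, since there was 1 library per genotype. The values below are log2 ratios of Siah2-/- over WT in the gated cells.

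Higher in the gated cells and lower in immature DC were Bcl2a1b (1.15), Bcl2a1d (1.24), Cxcl16 (1.11), Fscn1 (1.29, a gate gene), Icam1 (1.77), Marcksl1 (1.26), Relb (1.37) and Traf1 (1.51). The immature side for Fscn1 rested on 90 WT UMIs, 83 of them in 1 cell, against 3 in Siah2-/-. In the 67 mature DC these ratios lay between -0.10 (Cxcl16) and 0.59 (Icam1).

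Lower in the gated cells and higher in immature DC were Ccl2 (-3.16), Col1a2 (-1.25), Col3a1 (-1.06), Dcn (-3.05), Cxcl10 (-1.74), Tcf4 (-1.18), and the interferon-linked genes Ifit1 (-3.21), Ifit2 (-3.37), Ifit3 (-2.63), Rsad2 (-3.28), Igtp (-1.09) and Iigp1 (-1.34). In the 67 mature DC Ccl2 stood at -2.33, Rsad2 at -0.75, Ifit2 at -0.57, Ifit3 at -0.56, Iigp1 at -0.42, Ifit1 at 0.06, Igtp at 0.19, Tcf4 at 0.71 and Cxcl10 at 1.31. Col1a2 (2 and 5 UMIs) and Col3a1 (1 and 5 UMIs) had too few UMIs there to give a direction. Without the Cd79a and C1q carriers Ifit1 stood at 1.59, Ifit2 at 2.34, Ifit3 at 2.78, Igtp at 1.23, Cxcl10 at 2.70 and Ccl2 at -0.47, on 1 to 7 WT UMIs each, while Rsad2 (0.21), Iigp1 (0.02) and Tcf4 (-0.32) were closer to 0, on 5 to 9 WT UMIs each.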

How the results depend on the processing

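Leaving out a replicate was not possible with 1 library per genotype. No paired analysis was possible because each genotype had 1 library. The log2 ratio of the share, -0.71 by the gate as given, turned to 0.51 when cells were thinned to 4000 UMIs, to 0.37 among Ptprc-positive cells, to 0.42 for all cells of the leading cluster, to 0.00093 with 2 or more UMIs of both genes and for gated cells in the leading cluster, to 0.41 with 2 or more UMIs and no CD3 or Ncr1 term, and to 0.28 with 2 or more UMIs without Cd79a or C1q carriers. As a share of gated conventional DC it was -0.0196, and 0.28 with 2 or more UMIs of both genes. It kept its direction with the WT minimum of UMIs in both libraries (-0.55), over all barcodes with 1000 UMIs (-1.07) and without the carriers (-0.63). The definitions without the CD3 and Ncr1 term, of gated cells in the leading cluster, of 2 or more UMIs without carriers and of 2 or more UMIs as a share of DC were added after seeing the data.

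The counts of 487 higher and 997 lower genes were 106 and 135 with 2 or more UMIs of both genes, 263 and 619 over all barcodes with 1000 UMIs, 199 and 96 in all cells of the leading cluster, 1555 and 2303 with no minimum, 216 and 177 with 2 or more UMIs and no CD3 or Ncr1 term, 103 and 101 for gated cells in the leading cluster, and 115 and 48 with 2 or more UMIs without carriers. By the mean of per-cell CPM 298 were higher. Centred on the median of all genes they were 708 and 729. Against immature DC gated on Zbtb46, 105 genes were lower in both libraries in place of 182. Without thinning, Cd274 was detected in 50.88% of WT and 86.05% of Siah2-/- gated cells. The causes were not tested.

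Il12b (1.16) turned to -0.0109 with 2 or more UMIs, -0.75 in all cells of the cluster, -0.50 without the CD3 and Ncr1 term, -0.12 for gated cells in the cluster and -0.36 without carriers. Cxcl16 turned to -0.10, -0.0684 (all cells of the cluster), -0.16 (gated cells in it) and -0.24 (without carriers). Cd74 turned to -0.39, -0.0146 (all cells of the cluster) and -0.19 (gated cells in it), and H2-Ab1 to -0.44 and -0.0721 (gated cells in it). Apoe turned to 0.29 without carriers among all gated cells and to 0.19 in all cells of the cluster. Capn6 turned to 0.52 and Akr1b8 to 2.10 without the CD3 and Ncr1 term, Fhl2 to 0.45 in all cells of the cluster, and Socs2 to -0.0631 with 2 or more UMIs without carriers. Of 691 values for 57 genes, 391 stayed within the counting interval of the gated cells, 258 left it on the same side of 0, and the others lay on the other side. Of these, 20 belong to genes that were 2-fold apart in the gated cells and are given above, and 22 to 6 genes that were not (Ccl22, Cdkn1b, C1qa, Lyz2, Cd40 and Isg15), 5 of them past 2-fold: Ccl22 at -1.01 (gated cells in the leading cluster) and -1.21 (2 or more UMIs without carriers), Lyz2 at -2.90 (2 or more UMIs) and -1.996 (gated cells in the cluster), and Isg15 at 1.27 (2 or more UMIs without carriers). Leaving out the cell with most UMIs in each library was also added after seeing the data.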
